A study of Mus musculus with 30 samples.

Results

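The 31 genes described here encode the fatty acid beta-oxidation pathway, from the carnitine shuttle through the mitochondrial and peroxisomal enzymes to the carriers that take up the electrons. They were found by symbol in the deposited expression table, 1 row for each gene, and are 31 of the 55357 genes listed there. Messenger RNA was measured in brown adipose tissue (BAT), liver and subcutaneous white adipose tissue (sWAT) of C57BL/6N mice. In each tissue, 5 libraries came from mice on HFD, the usual abbreviation of a high-fat diet, and 5 from HFD mice given imeglimin, an oral glucose-lowering drug. All 6 groups received HFD, so an effect of the diet itself was not compared. The sex and age of the mice and the dose and duration of treatment are not given in the labels used here. The same 10 numbers recur in the 3 tissues, 75, 76, 79, 80 and 83 on HFD and 86, 88, 89, 91 and 94 with imeglimin. Values for single libraries are listed below in that order. The design text of the series gives 4 per group where the labels give 5, so groups of 5 were used here. It is not stated that each library of a group is from its own animal. The p-values therefore reflect the spread among these libraries alone, and part of it may be technical.

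Values are TPM, a unit of transcript abundance, which are divided by transcript length and add up to the same total in every library. The unit does not preserve how deeply a library was sequenced, and the depth behind each value is unknown. All 31 genes reached at least 1 TPM in at least 5 libraries of each tissue, and the lowest mean of any gene in any group was 2.39 TPM. Differences are on the scale of log2(TPM + 1), where 1 is a doubling, and a gene is said to be higher or lower where the adjusted p was under 0.05 (limma, Benjamini-Hochberg over all genes tested).

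The tissues carried their own markers. The summed level of 5 brown adipocyte markers was 9731 to 12441 TPM in the BAT libraries and at most 521 TPM elsewhere. The sum of 6 hepatocyte markers was at least 102607 TPM in liver. Some libraries stood apart. In BAT, 9 skeletal muscle markers summed to 5686 TPM in HFD 79 and 4972 TPM in imeglimin 94, and no other BAT library exceeded 713 TPM. The imeglimin library 88 of sWAT held 1272 TPM of 4 B cell markers, where the other 9 had 5.83 TPM or less, together with 16729 TPM of hepatocyte markers and only 5984 TPM of white adipocyte markers. Hepatocyte markers also reached 1128 TPM in the imeglimin library 89 of sWAT, and at most 200 TPM in sWAT on HFD. Transcripts of the mitochondrial genome with their nuclear copies took 63.0 to 67.9% of the total in BAT on HFD and 67.4 to 69.0% in BAT with imeglimin, but 17.0 to 22.9% in liver and sWAT. That share lowers the TPM of every nuclear gene in BAT, including the 31 genes described here. In tissue samples, fewer cells of a type and less RNA per cell cannot be told apart.

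Beta-oxidation shortens a fatty acid step by step, releasing acetyl-CoA and passing electrons to the respiratory chain. Long-chain acyl groups enter mitochondria as carnitine esters. Carnitine palmitoyltransferase 1 makes the ester at the outer membrane, the carrier Slc25a20 exchanges it across the inner membrane, and Cpt2 turns it back into acyl-CoA. Malonyl-CoA, the first product of fatty acid synthesis, inhibits the entry step. Inside, a chain of dehydrogenation, hydration, a second dehydrogenation and thiolysis is repeated, and peroxisomes run a parallel chain on very long, branched and dicarboxylic acids. Brown fat burns fatty acids to produce heat, liver burns them to make ketone bodies during fasting, and white fat mainly stores them.

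The promoter sequences below show 2 arrangements of genes within the pathway, a head-to-head pair and a duplicated gene whose copies differ upstream. They are from RefSeq promoter windows of the mouse build GRCm38.p6, each reaching from 250 bases before to 50 bases after a gene's start, which were given for 26 of the 31 genes. Hadha and Hadhb, the α and β subunits of the mitochondrial trifunctional protein, lie head to head on opposite strands of chromosome 5. In the deposited table (GRCm39) Hadha spans chr5:30323302-30360160 on the minus strand and Hadhb chr5:30360246-30389591 on the plus strand, so that 85 bases separate them. The stretch between the bounds that GENCODE vM21 gives both genes in GRCm38.p6, chr5:30155163-30155247, is given on the strand of Hadhb, with GC boxes (GGGCGG, the core of the site bound by the factor Sp1) in capitals.
Hadha-Hadhb intergenic stretch: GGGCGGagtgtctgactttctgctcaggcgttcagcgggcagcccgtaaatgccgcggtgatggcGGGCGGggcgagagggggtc

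It holds 2 GC boxes in 85 bases. RefSeq places the starts 272 bases apart, that of Hadha at 30154980 and that of Hadhb at 30155253, both outside the stretch. Acaa1a and Acaa1b, both encoding the peroxisomal 3-ketoacyl-CoA thiolase, lie 183 kb apart on chromosome 9 on opposite strands. Their open reading frames are identical at 96.5% of 1275 bases, whereas the 250 bases before their starts are identical at 49.6%. The 100 bases before each start are shown 5′ to 3′ on the strand of the gene, with GC boxes in capitals, for Acaa1a chr9:119341194-119341293 on the plus strand and for Acaa1b chr9:119157094-119157193 on the minus strand (GRCm38.p6).
Acaa1a: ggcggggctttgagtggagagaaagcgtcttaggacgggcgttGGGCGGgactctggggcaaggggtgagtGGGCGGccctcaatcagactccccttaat
Acaa1b: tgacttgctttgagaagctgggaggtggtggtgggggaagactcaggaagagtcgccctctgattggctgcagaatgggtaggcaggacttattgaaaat

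The first holds 2 GC boxes and the second none. Among 7 motifs searched on both strands of the 300-base windows, the GC box GGGCGG occurred in 19 of 26 pathway promoters (73.1%), against 35.6% of all 32817 mouse windows. A match to the palindromic site of the nuclear respiratory factor NRF1 was found in 4 of 26 (15.4%), against 4.59% of all windows. The promoter of Acad10 holds 2 matches, of which the one farther from the start is shown. A match for each of the 4 promoters is given with up to 10 bases on each side and the match, on either strand, in capitals, at chr3:79628876-79628905 (minus strand), chr5:121660535-121660564 (minus), chr7:43444051-43444071 (plus) and chr3:121815343-121815372 (minus) in GRCm38.p6.
Etfdh: tgcttctaggGCGCATGCGCacacgcgaga
Acad10: ccgccgggtcGCGCACGCGCacgcggaaag
Etfb: gtgttgcggcGCGCAGGCGCa
Abcd3: gcgggggtccGCGCGTGCGCagagcgtccc

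The nuclear receptor half-site AGGTCA occurred in 4 of 26 (15.4%, all windows 16.3%), in the promoters of Acadm, Acadvl, Cpt1a and Echs1. The ERR-type receptor site TNAAGGTCA and the PPAR-type pair of half-sites, DR1, had no match in these windows, nor had the E-box CACGTG, against 1.28%, 0.381% and 7.15% of all windows. These are matches of letters and were not tested as binding sites.

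On HFD, transcripts of the 31 genes took 1.498% of the library total in BAT, 0.832% in liver and 0.539% in sWAT. The summed level was 14979 ± 459 TPM in BAT, 8315 ± 227 TPM in liver and 5386 ± 346 TPM in sWAT (mean ± SD, n = 5). The lowest BAT library, at 14231 TPM, lay above the highest liver library, at 8686 TPM. Within the pathway, the makeup differed between tissues. The acyl-CoA dehydrogenases held 35.1% of the members' TPM in BAT, 14.4% in liver and 28.9% in sWAT. The peroxisomal enzymes held 3.11% in BAT, 43.01% in liver and 16.2% in sWAT. In BAT, Acaa2, Acadl and Acadvl together held 42.4%, whereas in liver Acaa1b alone held 24.9%. Electron transfer proteins held the largest share in sWAT among the 3 tissues, 22.1% against 16.4% in BAT and 12.4% in liver, and the later mitochondrial steps ranged from 16.2% in sWAT to 31.3% in BAT. These sums are descriptions with no test.

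**Figure D1:**
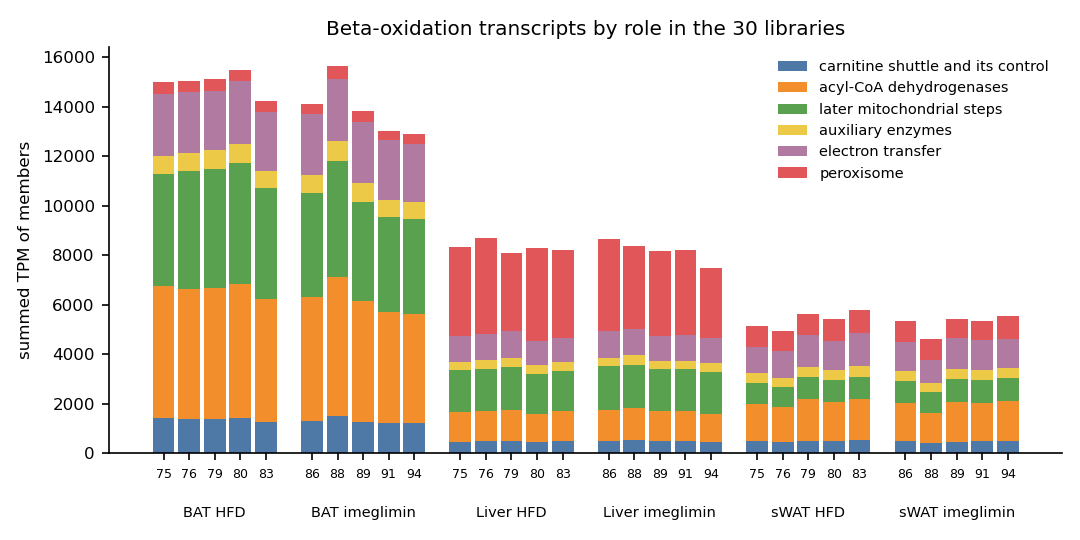
Stacked bars give the summed TPM of the 31 genes in each of the 30 libraries, coloured by role in the pathway, for HFD and imeglimin in BAT, liver and sWAT. The BAT bars reach 12922 to 15638 TPM, the liver bars 7489 to 8686 TPM with a large peroxisomal part, and the sWAT bars 4610 to 5802 TPM.

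The same 15 HFD libraries entered the 3 tissue comparisons, which therefore share samples. Between BAT and liver, 19 of the 31 genes were higher in BAT and 11 lower, against 30.2% and 44.4% of the 14023 genes tested. The median difference of the 31 genes was 1.08, and that of all genes -0.16. Against sWAT, 22 were higher in BAT and 8 lower, where 6.57% of all genes were higher and 83.7% lower, and the medians were 0.94 and -1.26. Liver stood above sWAT for 15 genes and below it for 12, against 14.9% and 76.1% of all genes. By mean level on HFD, 18 genes were highest in BAT, 11 in liver and 2, Acox3 and Hsd17b4, in sWAT. Mitochondrial transcripts with their nuclear copies fill much of the BAT total. The directions above were therefore checked under 2 other scalings, by median ratios and after removing those transcripts. All 19 genes higher in BAT than in liver and all 22 higher than in sWAT were higher under the other 2 scalings as well. Of the genes lower in BAT, 7 remained lower than in liver under the other 2 scalings (Cpt1a, Abcd3, Ehhadh, Acaa1a, Acaa1b, Decr2 and Crot) and 1, Cpt1a, remained lower than in sWAT. The signs for Mlycd, Acad10, Acad11, Eci2 and Hsd17b4 against liver, and for Eci2, Acox3, Hsd17b4, Crot and Ehhadh against sWAT, turned under at least 1 of them. Between liver and sWAT, 14 genes were higher and 2 (Cpt1b and Crat) lower in liver under all 3 scalings, and 10 turned under median-ratio scaling, namely Cpt2, Slc25a20, Acadm, Acads, Hadh, Echs1, Decr1, Etfa, Etfb and Hsd17b4. Under median ratios 20 genes were higher and 10 lower in BAT than in liver, against 41.1% and 36.0% of all genes. The split was 28 to 1 for BAT against sWAT (all genes 29.0% and 39.4%) and 26 to 2 for liver against sWAT (37.3% and 42.8%). After removing mitochondrial transcripts the splits were 24 to 7 (all genes 69.3% and 16.5%), 27 to 3 (22.0% and 49.1%) and 14 to 12 (14.6% and 74.6%). The median of all genes for BAT against liver moved from -0.16 to 0.06 and 0.78 under these scalings, that for BAT against sWAT from -1.26 to -0.08 and -0.28, and that for liver against sWAT from -1.03 to -0.07 and -1.02.

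**Figure D2:**
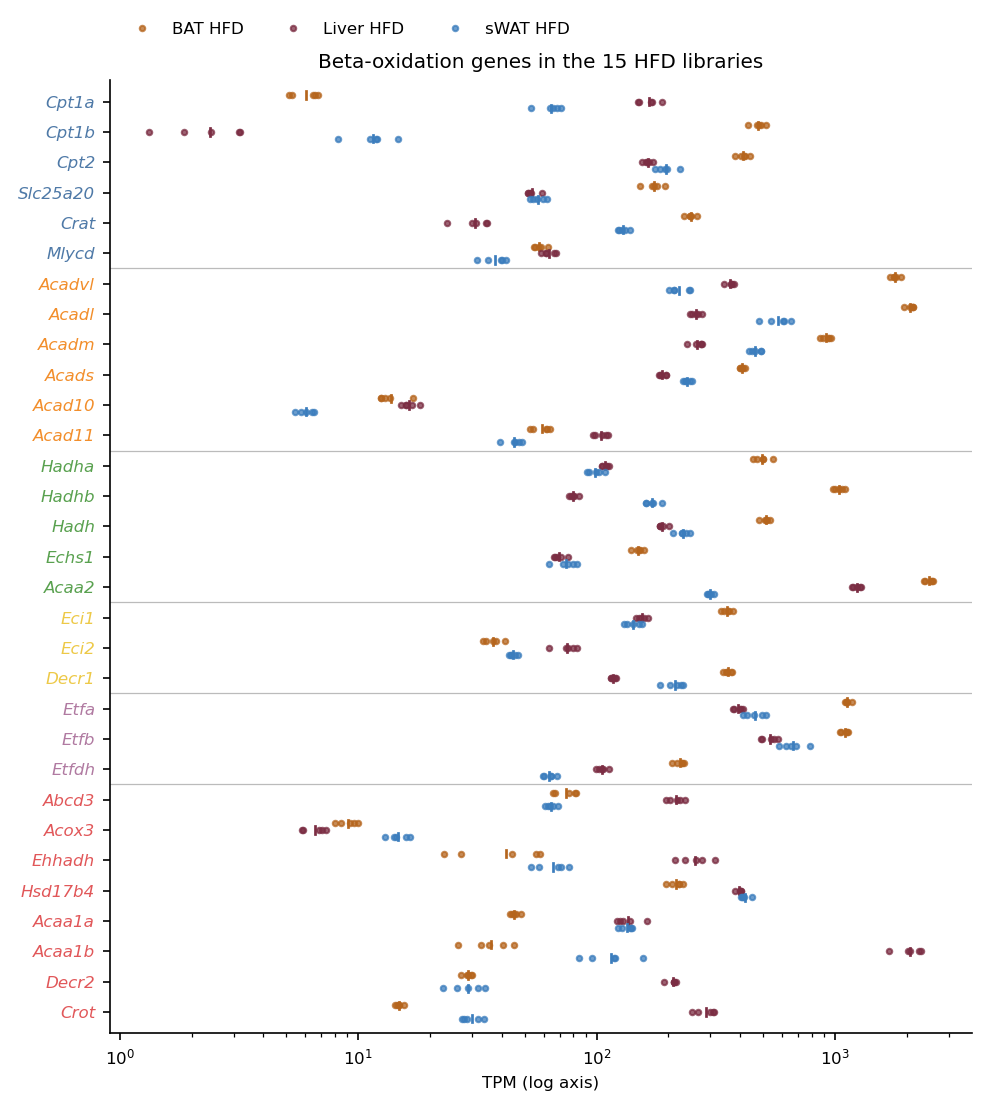
Points give the TPM of each pathway gene in the 5 HFD libraries of BAT, liver and sWAT on a log axis, ticks give the mean, and gene names are coloured by role. The 18 genes highest in BAT belong to the shuttle and the mitochondrial roles, and the peroxisomal genes apart from Acox3 and Hsd17b4 are highest in liver.

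Carnitine palmitoyltransferase 1 is made as a liver form, Cpt1a, and a muscle form, Cpt1b, whose open reading frames are identical at 67.4% of bases. In the deposited table (GRCm39) Cpt1a lies at chr19:3372334-3435733 on the plus strand and Cpt1b at chr15:89300608-89310066 on the minus strand. On HFD, Cpt1a stood at 6.46, 6.59, 6.75, 5.26 and 5.13 TPM in BAT, at 150.2, 169.6, 188, 149 and 171 TPM in liver, and at 63.6, 71.1, 53.3, 65.8 and 68.2 TPM in sWAT. The 3 tissues did not overlap, with means of 6.04 ± 0.778, 165 ± 16.2 and 64.4 ± 6.78 TPM. Cpt1b ran the other way, at 516, 471, 482, 491 and 431 TPM in BAT, 3.17, 3.20, 1.33, 1.85 and 2.42 TPM in liver and 12.01, 11.8, 11.2, 14.7 and 8.20 TPM in sWAT. Every BAT library exceeded every liver and sWAT library. The log2 difference of BAT from liver was -4.56 (SE 0.094, adjusted p = 2.97e-16) for Cpt1a and 7.18 (SE 0.16, adjusted p = 5.29e-16) for Cpt1b. Against sWAT the differences in BAT were -3.22 (SE 0.094, adjusted p = 4.25e-14) for Cpt1a and 5.27 (SE 0.16, adjusted p = 4.89e-14) for Cpt1b. Of the sum of both forms, Cpt1b made up 98.8% of the TPM in BAT, 1.45% in liver and 15.3% in sWAT. The liver share rests on a mean of only 2.39 TPM, and a predicted gene, Gm44502, overlaps Cpt1b on its strand.

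**Figure D3:**
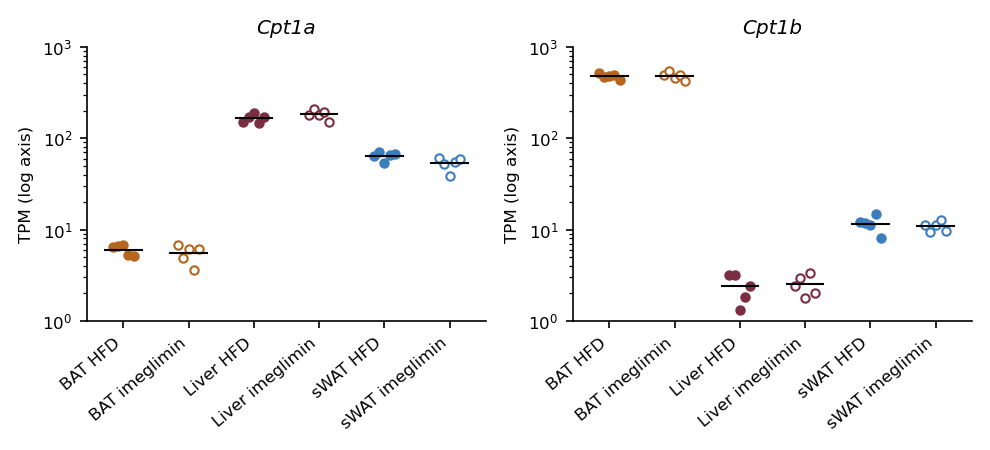
Points give the TPM of Cpt1a and Cpt1b in each library of BAT, liver and sWAT on a log axis, filled for HFD and open for imeglimin, and lines give the mean of each group. Cpt1b is the higher form in every BAT library and Cpt1a in every liver and sWAT library, with both treatments.

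Of the other members of the shuttle, Cpt2, Slc25a20 and Crat were highest in BAT. Cpt2 stood at 416, 419, 403, 439.7 and 381 TPM in BAT, at 162, 166, 173, 155 and 163 TPM in liver and at 185, 176, 198, 194 and 223 TPM in sWAT. Its lowest BAT library lay well above the highest library of the other tissues, and the difference was 1.32 (SE 0.062, adjusted p = 6.39e-12) from liver and 1.07 (SE 0.062, adjusted p = 6.80e-11) from sWAT. Slc25a20 had 179, 174, 170.1, 193 and 152 TPM in BAT, 58.8, 52.9, 52.8, 51.4 and 51.6 TPM in liver and 54.1, 52.5, 56.1, 62.1 and 59.8 TPM in sWAT. It was higher in BAT by 1.68 and 1.59, while liver and sWAT overlapped (-0.086, adjusted p = 0.236). Crat, the carnitine acetyltransferase that buffers short acyl groups, had 264, 247, 249.9, 246 and 232 TPM in BAT, 31.2, 30.1, 23.5, 34.8 and 34.5 TPM in liver and 124, 123, 132, 128 and 138 TPM in sWAT. The 3 tissues were ordered BAT, sWAT, liver without overlap, with a difference of 2.98 (SE 0.085, adjusted p = 1.15e-14) between BAT and liver and of 0.94 (SE 0.085, adjusted p = 1.89e-08) between BAT and sWAT. Mlycd, which breaks down malonyl-CoA and so relieves the inhibition of the entry step, differed least between tissues among the shuttle genes, at 57.4, 54.6, 58.5, 62.6 and 55.1 TPM in BAT, 58.7, 67.8, 66.6, 61.1 and 61.1 TPM in liver and 39.6, 35.0, 31.6, 41.9 and 40.2 TPM in sWAT. BAT and liver overlapped (-0.13, adjusted p = 0.136, a sign that turned under other scalings), and both exceeded sWAT, BAT by 0.61 and liver by 0.73.

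The acyl-CoA dehydrogenases open each round and differ in the chain length they take. All 6 were higher in BAT than in sWAT, and 4 of them were higher in BAT than in liver. Of all genes tested, 6.57% were higher in BAT than in sWAT and 30.2% higher than in liver. Acadvl, the very-long-chain enzyme, stood at 1762, 1773, 1803, 1887 and 1711 TPM in BAT, 365, 366, 376, 342 and 369 TPM in liver and 211, 201, 246, 211 and 245 TPM in sWAT. Acadl, the long-chain enzyme, stood at 2117, 2119.9, 2074, 2107 and 1955 TPM, 246, 267, 276, 252 and 261 TPM and 537, 479.6, 652, 607 and 610.3 TPM in the same tissues. Both were lowest in one of the other tissues without overlap, Acadvl in sWAT and Acadl in liver. Against liver Acadvl was higher in BAT by 2.29 (SE 0.061, adjusted p = 4.79e-15) and Acadl by 2.99 (SE 0.072, adjusted p = 1.71e-15), and against sWAT by 3.002 and 1.85. The medium-chain enzyme Acadm had 963, 895, 943, 932 and 866 TPM in BAT, 273, 274, 261, 239.6 and 278 TPM in liver and 461, 434, 489.7, 449 and 488 TPM in sWAT. The short-chain enzyme Acads had 411, 409, 418, 401 and 399 TPM in BAT, 187, 195, 196, 183 and 184 TPM in liver and 248, 230.5, 251, 235 and 238 TPM in sWAT. For both, every BAT library exceeded every other, by 1.79 and 1.11 against liver and by 0.99 and 0.76 against sWAT. The excess of BAT over liver thus ran from 1.11 for the short-chain to 2.99 for the long-chain enzyme, with Acadm and Acadvl between them.

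The other 2 dehydrogenases, Acad10 and Acad11, are less well characterised. Acad10 stood at 16.9, 13.6, 12.5, 12.9 and 12.4 TPM in BAT, 15.1, 16.8, 18.2, 15.8 and 15.8 TPM in liver and 5.78, 6.53, 6.37, 6.02 and 5.45 TPM in sWAT. Acad11 stood at 61.9, 53.9, 63.9, 61.5 and 52.8 TPM, 96.3, 111, 105, 98.3 and 109.6 TPM and 48.5, 39.4, 45.3, 47.2 and 44.9 TPM. Both were highest in liver by mean TPM, though Acad10 overlapped between BAT and liver. The differences of BAT from liver, -0.25 (adjusted p = 0.0163) and -0.82 (adjusted p = 2.48e-08), turned under other scalings, while both genes were higher in BAT than in sWAT, by 1.05 and 0.38.

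All 5 genes of the later mitochondrial steps and all 3 of electron transfer were higher in BAT than in both other tissues. Of all genes tested, 30.2% were higher in BAT than in liver and 6.57% higher than in sWAT. Hadha, the α subunit of the trifunctional protein, stood at 455, 501, 499, 549.9 and 469 TPM in BAT, 110.1, 105, 110.1, 106 and 113 TPM in liver and 92.8, 91.6, 99.3, 103 and 108 TPM in sWAT. Hadhb, the β subunit, had 981, 1038, 1071, 1104 and 1003 TPM in BAT, and means of 79.7 ± 2.91 TPM in liver and 171 ± 11.2 TPM in sWAT. The BAT libraries stood apart from both, and the difference from liver was 2.17 (SE 0.06, adjusted p = 7.40e-15) for Hadha and 3.69 (SE 0.054, adjusted p = 8.99e-18) for Hadhb. Although the proteins form 1 complex and the genes lie head to head, the ratio of Hadhb to Hadha TPM differed between tissues, at 2.10 ± 0.0628 in BAT, 0.732 ± 0.0386 in liver and 1.73 ± 0.0358 in sWAT. The ranges over 5 libraries did not overlap (2.01 to 2.16, 0.687 to 0.765 and 1.67 to 1.76). The ratio was chosen after its values were seen, so it carries no test. Acaa2, the mitochondrial thiolase, had 2396, 2576, 2566, 2532 and 2359.6 TPM in BAT, 1271, 1242, 1285, 1192 and 1178 TPM in liver and 302, 290.4, 296, 311 and 294 TPM in sWAT. It was the most abundant of the 31 genes in BAT, and its difference was 1.01 (SE 0.048, adjusted p = 6.51e-12) from liver and 3.05 (SE 0.048, adjusted p = 7.82e-17) from sWAT. Hadh and Echs1, the short-chain dehydrogenase and hydratase, were higher in BAT than in liver by 1.43 and 1.09.

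Among the enzymes for unsaturated chains, the isomerase Eci1 and the reductase Decr1 were higher in BAT than in liver, by 1.18 and 1.59, and than in sWAT, by 1.305 and 0.74. The isomerase Eci2 differed by -1.01 and -0.27, signs that turned under other scalings. Etfa and Etfb, the subunits of the flavoprotein that accepts electrons from the dehydrogenases, had means of 1128 ± 29.0 and 1099 ± 38.4 TPM in BAT. Etfdh, which hands these electrons to ubiquinone, had 223 ± 10.4 TPM there, against 105 ± 4.72 TPM in liver and 63.3 ± 3.50 TPM in sWAT. Against liver the 3 were higher in BAT by 1.52, 1.05 and 1.08. A gene listed on the strand of Etfb and overlapping it, Etfbl, averaged 0.553 TPM.

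The peroxisomal genes ran against the mitochondrial ones between BAT and liver, with 1 of 8 higher in BAT and 7 lower. The exception was Acox3, an oxidase for branched chains, at 0.41. Of all genes tested, 30.2% were higher and 44.4% lower in BAT than in liver. Ehhadh, the L-bifunctional enzyme, stood at 55.8, 27.0, 44.2, 22.9 and 57.7 TPM in BAT, 236, 314, 212, 261 and 277 TPM in liver and 68.9, 57.3, 53.2, 71.0 and 77.0 TPM in sWAT. Every liver library exceeded every other, and within BAT its coefficient of variation, 38.6%, was the highest of the 31 genes. Acaa1b, one of the thiolase copies, stood at 35.4, 32.8, 45.1, 26.3 and 40.4 TPM in BAT, 2069, 2258, 1695, 2299 and 2018 TPM in liver and 95.7, 84.2, 119, 119 and 157 TPM in sWAT. It was the most abundant of the 31 genes in liver, and its difference of BAT from liver was -5.82 (SE 0.16, adjusted p = 6.13e-15). The other copy, Acaa1a, had means of 45.2 ± 1.92, 136 ± 16.6 and 134 ± 7.72 TPM in BAT, liver and sWAT. The ratio of Acaa1b to Acaa1a was thus 0.794 ± 0.146 in BAT, 15.6 ± 3.31 in liver and 0.861 ± 0.223 in sWAT, again a description. With reading frames this alike, the split of reads between the copies by the authors' quantification is uncertain. Hepatocyte markers were also found outside liver. In BAT on HFD they summed to 172, 418, 1098, 16.7 and 1084 TPM. Their part in these levels was not tested. The transporter Abcd3, the reductase Decr2 and the carnitine octanoyltransferase Crot, which readies shortened chains for export from peroxisomes, were also lower in BAT than in liver. Their differences were -1.52, -2.81 and -4.19. The D-bifunctional enzyme Hsd17b4 differed by -0.89, a sign that turned after mitochondrial transcripts were removed.

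**Figure D4:**
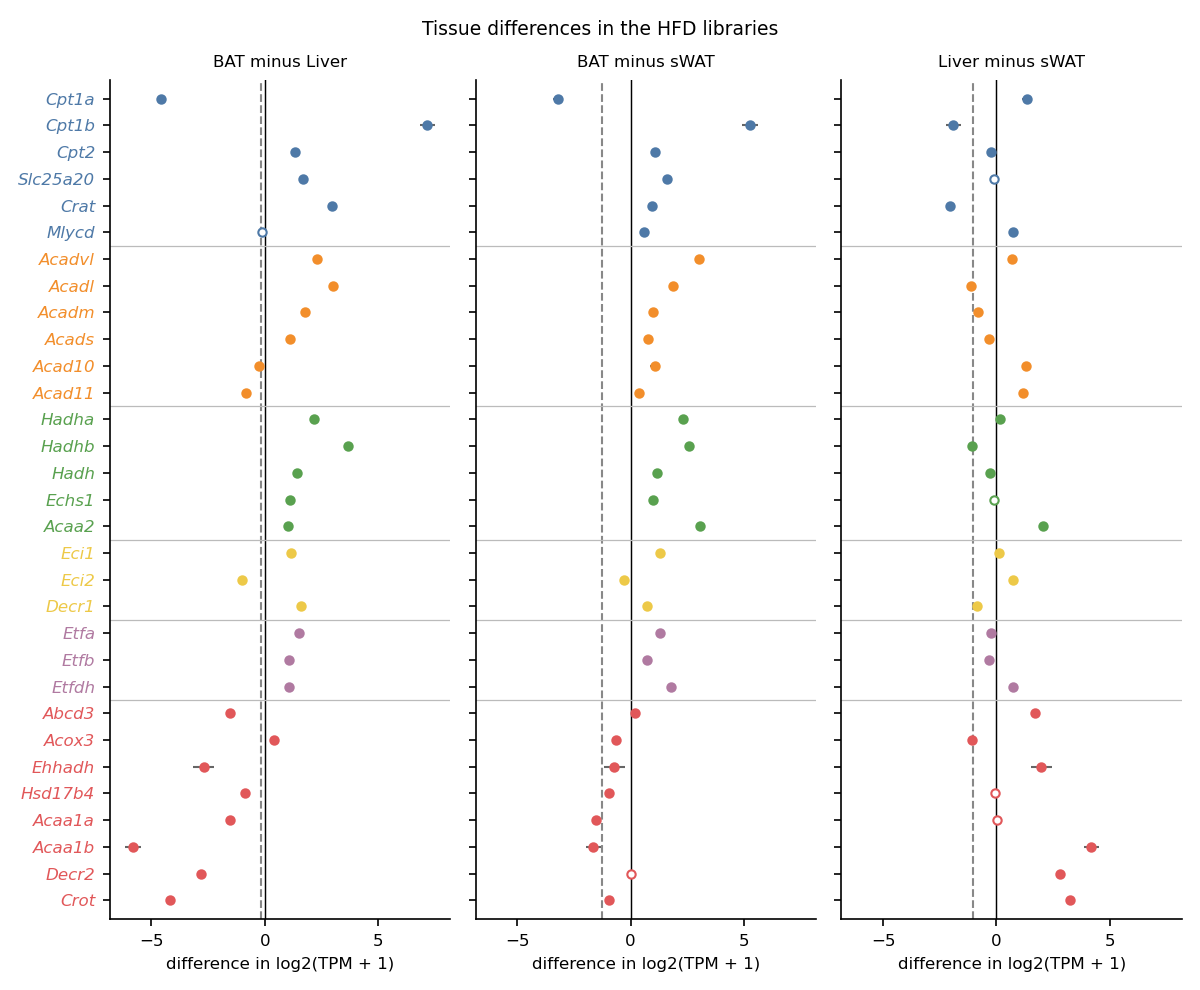
Points give the difference in log2(TPM + 1) of each pathway gene between tissues on HFD, with lines for 95% intervals, filled where the adjusted p was under 0.05 and open where not, and the dashed line marks the median of all genes tested. Cpt1b lies at 7.18 and Acaa1b at -5.82 in BAT against liver, the ends of the range.

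The comparison of imeglimin with HFD in each tissue asks whether the drug was followed by a change in these transcripts, the series title naming BAT as a target. In BAT, none of the 31 genes passed the threshold (limma), where 99 of 11402 genes did, 0.868%. Of the 31, 22 had lower means with imeglimin and 9 higher, and their median difference, -0.13, was close to that of all genes, -0.12, of which 76.9% were negative. At an unadjusted p under 0.05, 11 genes lay lower, against 23.0% of all genes, and 1 higher, against 1.25%. On median-ratio scaling the split by sign became 18 positive to 13 negative, with 2 genes lower and 8 higher at that unadjusted p, against 6.98% and 7.85% of all genes. After removing mitochondrial transcripts it was 14 to 17, with 2 lower and 7 higher, against 7.73% and 5.47%. The sign of many BAT differences thus depended on the scaling. Mitochondrial transcripts with their nuclear copies took 65.4% of the total on HFD and 68.2% with imeglimin. Transcripts of the mitochondrial genome alone took 37.1 to 40.8% on HFD and 38.6 to 39.0% with imeglimin.

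The lowest adjusted p in BAT belonged to Hsd17b4, the peroxisomal D-bifunctional enzyme, with 221, 207, 230.5, 221 and 196 TPM on HFD and 176, 198, 169, 138 and 161 TPM with imeglimin. The groups overlapped by 1 imeglimin library, 88, and the difference was -0.36 (95% interval -0.55 to -0.16, adjusted p = 0.0637). For Hadha, 455, 501, 499, 549.9 and 469 TPM on HFD stood against 377, 496, 348, 317 and 341 TPM with imeglimin, where 88 was again the 1 library within the HFD range. The difference was -0.41 (95% interval -0.65 to -0.17, adjusted p = 0.0762). Hadhb showed 981, 1038, 1071, 1104 and 1003 TPM on HFD and 891, 1073, 867, 738 and 790.0 TPM with imeglimin, a difference of -0.26 (SE 0.09, adjusted p = 0.116). The ratio of Hadhb to Hadha was 2.33 ± 0.117 with imeglimin against 2.10 ± 0.0628 on HFD, and the ranges, 2.16 to 2.49 and 2.01 to 2.16, came close without overlapping. Number 88 was the highest of the 5 imeglimin BAT libraries for 25 of the 31 genes, and 91 the lowest for 21. The same counts over all genes are not given here. Of the 5, 88 had the lowest share of mitochondrial transcripts with their nuclear copies, at 67.4%, and 91 the highest, at 69.0%. Library 88 also had the lowest hepatocyte marker sum of the 5, at 9.50 TPM against 247 to 1838 TPM in the others. The part of either was not tested. With all 30 libraries in 1 fit, Hadha and Hsd17b4 passed as lower (adjusted p = 0.00706 and 0.0417), as did 2.64% of all genes. Without 88, 6 genes passed the threshold, all lower with imeglimin, at -0.30 for Cpt2, -0.21 for Acadvl, -0.52 for Hadha, -0.34 for Hadhb, -0.33 for Etfdh and -0.42 for Hsd17b4, with adjusted p from 0.0159 to 0.0390. Of all genes tested, 6.04% passed as lower in that fit.

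The groups did not overlap for 1 gene that lay lower, against 6.58% of all genes, and for 1 that lay higher, against 0.228%. Crot stood at 14.8, 14.9, 15.5, 14.5 and 14.3 TPM on HFD and 12.2, 13.1, 13.5, 9.86 and 12.4 TPM with imeglimin. Etfb stood at 1128, 1117, 1065, 1133 and 1049.7 TPM and 1207, 1147, 1229, 1333 and 1218 TPM. Neither passed, at -0.26 (SE 0.079, adjusted p = 0.0895) for Crot and 0.16 (SE 0.05, adjusted p = 0.101) for Etfb. Its partner subunit Etfa moved by -0.13, and the ratio of Etfb to Etfa was 0.974 ± 0.0239 on HFD and 1.20 ± 0.164 with imeglimin.

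For the dehydrogenases and the shuttle, BAT levels with imeglimin overlapped those on HFD. Differences in parentheses are imeglimin minus HFD in log2(TPM + 1), here and for liver and sWAT. Cpt2 had 352, 421, 345, 307 and 333 TPM with imeglimin (-0.23, SE 0.079, adjusted p = 0.115). Acadvl had 1627, 1838, 1561, 1508 and 1469.8 TPM (-0.16, SE 0.063, adjusted p = 0.148), and the difference for Acads, at 373, 408, 375, 365 and 323 TPM, was -0.15 (SE 0.059, adjusted p = 0.162). In all 3 of these genes, library 88 was the 1 imeglimin library inside the HFD range, and the other 4 lay below it. Acadl had 2058, 2258, 2016, 1825 and 1762 TPM, a difference of -0.07. Acadm had 877, 1035, 859.5, 730.2 and 806 TPM, a difference of -0.10. Neither of these long- and medium-chain enzymes reached an unadjusted p under 0.05. Acad10 had 13.7, 16.3, 13.97, 11.4 and 12.03 TPM (-0.019), and Acad11 had 50.4, 66.0, 51.4, 46.9 and 45.7 TPM (-0.18). Acad10 overlapped with HFD. For Acad11, 4 imeglimin libraries lay below every HFD library and 88 above every one.

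Cpt1b, the form that prevails in BAT, had 493, 545, 461, 489.6 and 428 TPM with imeglimin and differed by 0.014 (95% interval -0.14 to 0.17). Cpt1a, at 6.77, 4.95, 6.10, 3.62 and 6.08 TPM, differed by -0.13. Cpt1b stayed above Cpt1a in all 10 BAT libraries. Slc25a20 had 170.3, 189, 161, 155 and 161 TPM (-0.053). Crat had 232, 290.0, 229, 209 and 232 TPM (-0.065). Mlycd had 55.8, 64.7, 60.7, 64.0 and 60.1 TPM (0.081). All 3 differences lay within the spread of the libraries. Acaa2, the most abundant member, had 2329.8, 2415, 2204, 2255 and 2157 TPM (-0.13, SE 0.048, adjusted p = 0.138), of which only library 88 lay within the HFD range. Ehhadh had 29.0, 83.6, 43.8, 45.6 and 41.1 TPM and the widest 95% interval of the 31 genes, -0.46 to 0.92. Acaa1b had 48.1, 38.3, 53.7, 30.2 and 51.5 TPM, a difference of 0.29. For 27 of the 31 genes the interval lay within 0.5 of 0 in either direction, the exceptions being Hadha, Ehhadh, Hsd17b4 and Acaa1b.

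In liver, no gene of the pathway passed (limma), and none of the 11516 genes tested did (0%). At an unadjusted p under 0.05 the count was also 0, against 2.54% of all genes lower and 1.67% higher. The differences ran from -0.24 for Crat to 0.15 for Cpt1a, 23 positive and 8 negative, and the lowest adjusted p was 0.984. All 31 genes overlapped between the groups. Cpt1a, the form that prevails in liver, had 182, 211, 181, 196 and 150.3 TPM with imeglimin (184 ± 22.4, against 165 ± 16.2 TPM on HFD). Its 95% interval ran from -0.059 to 0.36.

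Cpt1b had 2.40, 2.93, 1.79, 3.38 and 2.03 TPM in liver with imeglimin, a difference of 0.064. Cpt2 had 173, 165, 165, 169 and 156 TPM (0.016). Slc25a20 had 52.3, 52.4, 50.6, 53.4 and 50.1 TPM (-0.046). The steps that carry acyl groups into the matrix thus lay close to their HFD levels. Crat had 35.4, 31.04, 24.0, 24.0 and 17.8 TPM (-0.24), and the lowest of these, library 94, lay below all HFD libraries. Mlycd had 64.7, 67.9, 56.1, 53.2 and 61.2 TPM (-0.059). Among the dehydrogenases, Acadvl had 374, 381, 353, 361 and 358 TPM (0.007). Acadl had 277, 281, 258, 265 and 258 TPM (0.04). Acadm had 273, 308, 285, 266 and 249.7 TPM (0.058). These 3 enzymes for long and medium chains overlapped their HFD values. Acads had 193, 209, 184, 184 and 182 TPM (0.0098). Acad10 had 20.9, 18.3, 15.2, 18.6 and 17.1 TPM (0.13). Acad11 had 113, 109, 114, 106 and 97.6 TPM (0.05). None of the dehydrogenases reached an unadjusted p under 0.05. Hadha, of the trifunctional protein, had 110.4, 124, 107, 106 and 101 TPM (0.0033). Acaa2 had 1279, 1237, 1239, 1249 and 1256 TPM (0.022). The imeglimin SD of this thiolase was 17.2 TPM, against 47.2 TPM on HFD. In the peroxisomal chain, Ehhadh had 309.6, 241, 305, 275 and 225 TPM (0.062). Acaa1b had 2144, 1713, 1941, 1949 and 1494 TPM, against 2068 ± 241 TPM on HFD (-0.16). Apart from Crat, the 95% intervals of the 31 genes lay within 0.5 of 0 in liver.

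In sWAT, none of the 31 genes passed (limma), where 2 of 13736 genes did, 0.0146%. At an unadjusted p under 0.05, Slc25a20 and Abcd3 lay lower and Acad10, Acaa2 and Decr2 higher, against 5.64% of all genes lower and 5.70% higher. Acaa2 had 325, 400.3, 356, 335 and 337 TPM with imeglimin, all above the 302, 290.4, 296, 311 and 294 TPM on HFD. The difference was 0.23 (SE 0.075, adjusted p = 0.328), or 0.18 without library 88. Slc25a20 had 49.8, 40.9, 44.8, 48.3 and 52.8 TPM, against 56.9 ± 4.00 TPM on HFD (-0.26, SE 0.086, adjusted p = 0.321). Abcd3, the peroxisomal fatty acid transporter, had 60.9, 51.5, 47.0, 53.6 and 59.4 TPM with imeglimin, all below the 65.6, 61.0, 63.9, 68.9 and 62.6 TPM on HFD (-0.24, SE 0.083, adjusted p = 0.346). The share of all genes whose groups did not overlap in sWAT is not given here, so the lack of overlap of Acaa2 and Abcd3 cannot be weighed. Acad10 had 6.02, 9.29, 8.19, 7.63 and 8.25 TPM, against 6.03 ± 0.438 TPM on HFD (0.33, SE 0.12, adjusted p = 0.363). Decr2 had 35.6 ± 5.78 TPM with imeglimin, against 28.8 ± 4.53 TPM on HFD (0.30, SE 0.13, adjusted p = 0.434). All of these genes differed by under 0.5 and did not pass. Library 88 was the highest imeglimin library for Acaa2, Acad10 and Decr2, which were all higher in liver than in sWAT on HFD. It held 16729 TPM of hepatocyte markers, and the part of these was not tested. With all 30 libraries in 1 fit, Slc25a20 (adjusted p = 0.0280) and Acaa2 (adjusted p = 0.0117) passed, against 2.09% of all genes lower and 1.61% higher.

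Cpt1a had 61.6, 52.9, 39.1, 55.0 and 59.5 TPM in sWAT with imeglimin, the lowest difference there (-0.27, adjusted p = 0.453). Cpt1b had 11.2, 9.43, 11.3, 12.8 and 9.55 TPM (-0.071). Cpt2 had 182, 142, 175, 202 and 186 TPM (-0.14). All 3 overlapped their HFD values. Crat had 140.3, 110.2, 150.4, 155 and 146 TPM (0.11). Mlycd had 37.1, 38.2, 33.0, 32.6 and 38.6 TPM (-0.064). Acadvl had 229, 236, 260.1, 225 and 209 TPM (0.058). These genes also overlapped. Acadl had 562, 420.2, 551, 558 and 584 TPM (-0.11), with library 88 the lowest. Acadm had 455, 350.0, 517, 473 and 538 TPM (-0.0063). Acads had 255, 169, 213, 219 and 229.8 TPM (-0.16). Library 88 was the one with B cell transcripts and the most hepatocyte transcripts, while 89 held 1128 TPM of hepatocyte markers. The summed level of the 31 genes in 88, 4610 TPM, was the lowest of the 10 sWAT libraries. Acad11 had 46.0, 40.7, 46.1, 47.0 and 51.5 TPM (0.036). Hadha had 92.9, 87.6, 93.6, 92.3 and 96.3 TPM (-0.093). Ehhadh had 52.9, 55.0, 76.6, 55.9 and 109 TPM (0.047). None of these reached an unadjusted p under 0.05. Acaa1b had 102, 239, 75.5, 85.4 and 112 TPM (-0.002). Library 88 held more than any other sWAT library of this gene, which is abundant in liver, beside its 16729 TPM of hepatocyte markers, and the part of these was not tested.

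**Figure D5:**
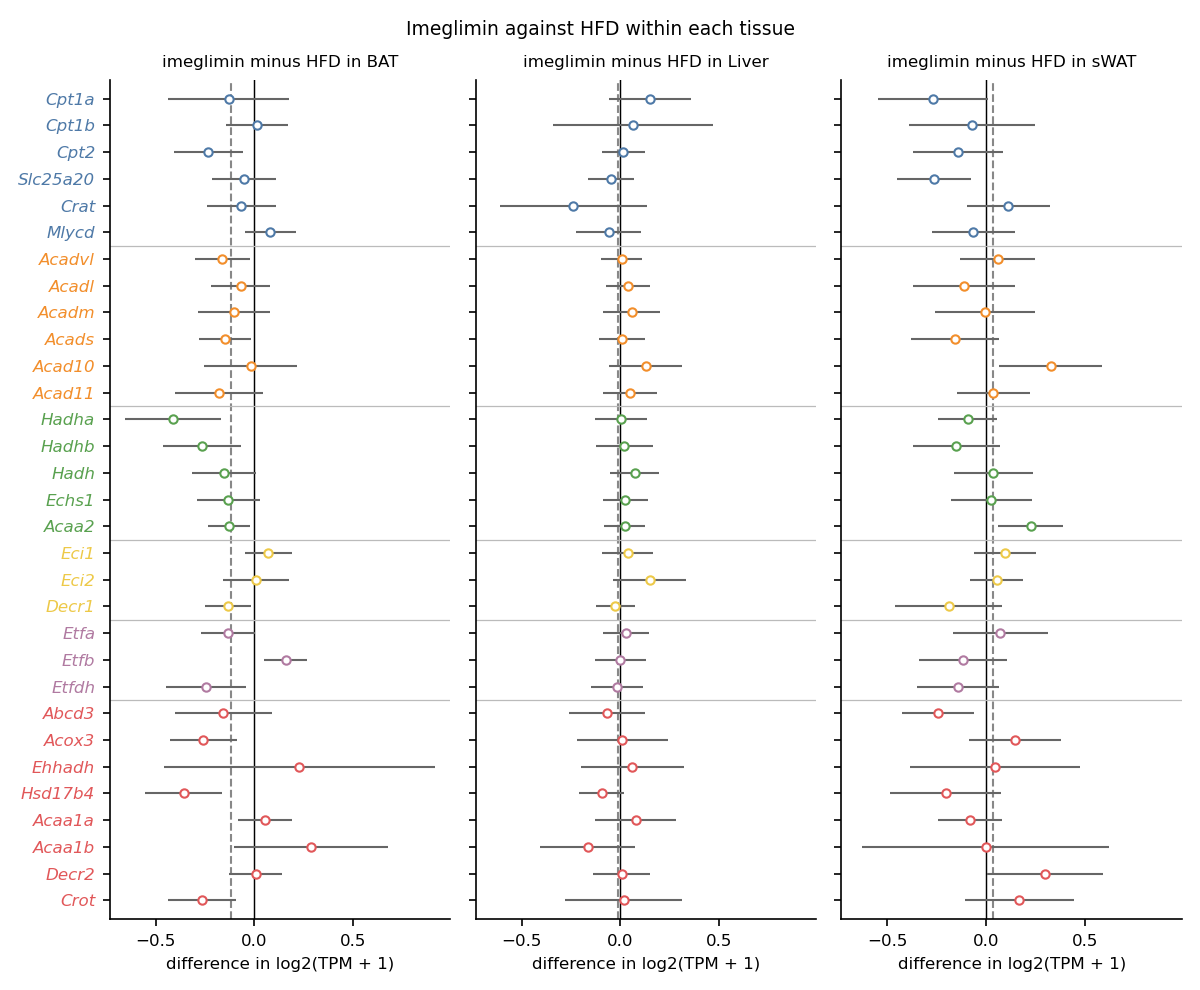
Points give the imeglimin minus HFD difference in log2(TPM + 1) of each pathway gene in BAT, liver and sWAT on 1 shared axis, with 95% intervals, and the dashed line marks the median of all genes tested. All points are open, since no adjusted p was under 0.05, and they lie between -0.41 and 0.33.

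Whether the response differed between tissues was tested as an interaction over all 30 libraries, in 3 comparisons that share samples. BAT and sWAT differed for 1 gene, Acaa2, where 2.05% of all genes tested differed. Acaa2 in BAT had 2486 ± 101 TPM on HFD and 2272 ± 102 TPM with imeglimin, and in sWAT 299 ± 8.12 and 351 ± 29.95 TPM. The response in BAT minus that in sWAT was -0.36 (95% interval -0.50 to -0.21, adjusted p = 0.0124). It did not pass under median-ratio scaling (-0.17, adjusted p = 0.371), after removing mitochondrial transcripts (-0.21, adjusted p = 0.233), without BAT 79 and 94 (-0.33, adjusted p = 0.0577) or without number 80, 89 or 91 (adjusted p = 0.0532 to 0.0731). In a fit of the 20 libraries of both tissues, chosen after seeing the data, it was the same -0.36 with an adjusted p of 0.0676. Without number 88 in all tissues, 6 genes passed, Acad11, Hadha, Hadh, Acaa2, Etfa and Hsd17b4, each with a lower response in BAT, against 5.44% of all genes. Between BAT and liver no gene of the pathway differed (limma), against 0.167% of all genes, with 5 at an unadjusted p under 0.05, all lower in BAT, against 9.41% of all genes. The lowest p was that of Hadha, at -0.42 (SE 0.12, adjusted p = 0.158), and without number 88 it passed at -0.47 (adjusted p = 0.00566), against 1.26% of all genes with a lower response in BAT. Between liver and sWAT none differed (limma), against 0.127% of all genes, with 2 lower and 2 higher in liver at an unadjusted p under 0.05, against 6.13% and 4.12%, and the lowest p was that of Acaa2 (-0.20, SE 0.072, adjusted p = 0.295).

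Genes around the pathway were counted on 2 further lists. The first holds 19 other enzymes, among them Acaca, the acetyl-CoA carboxylase that makes malonyl-CoA in the cytosol. Of the 18 tested in BAT, 1 was lower with imeglimin and none higher, where 0.868% of all genes passed in either direction. Acaca stood at 114, 182, 157, 204 and 141 TPM on HFD and 74.6, 87.2, 45.6, 51.3 and 32.5 TPM with imeglimin. The groups did not overlap, and the difference was -1.496 (SE 0.25, adjusted p = 0.0446). Its adjusted p rose above 0.05 under median-ratio scaling (-1.35, 0.0910), after removing mitochondrial transcripts (-1.39, 0.0862), with no filter on low values (-1.496, 0.0801), without BAT 79 and 94 (-1.31, 0.206) and without any 1 of the numbers 76, 79, 80, 89, 91 and 94 (-1.31 to -1.496, 0.103 to 0.135). The direction was the same in all of these. The next by p were the dehydrogenase Acad9, at -0.35 (adjusted p = 0.0675), and Hsd17b10, at 0.19 (adjusted p = 0.107). In the interactions, Acaca responded lower in BAT than in liver (-1.46, adjusted p = 0.0328) and than in sWAT (-1.43, adjusted p = 0.0122), and Phyh, the peroxisomal phytanoyl-CoA hydroxylase, lower in BAT than in sWAT (-0.63, adjusted p = 0.0431). Under median-ratio scaling the adjusted p of these 3 was 0.0704, 0.0501 and 0.219, and single numbers left out took each of them above 0.05. In liver and sWAT none of the 18 tested passed (limma). At an unadjusted p under 0.05 there were 0 in liver and 3 in sWAT. Of all genes, 2.54% lay lower and 1.67% higher in liver at that p, and 5.64% and 5.70% in sWAT. The lowest p belonged to Pex11a (log2 difference -0.13), Hacl1 (-0.17) and Hsd17b10 (-0.11) in liver, and to Hsd17b10 (0.19), Phyh (0.50) and Acad9 (-0.34) in sWAT. Between tissues on HFD, 6 of the 19 were higher and 11 lower in BAT than in liver, against 30.2% and 44.4% of all genes. Against sWAT, 6 were higher and 12 lower in BAT (all genes 6.57% and 83.7%). In liver, 10 were higher and 7 lower than in sWAT (all genes 14.9% and 76.1%). These counts were not checked under the other scalings.

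The second list holds 20 regulators and PPAR targets, PPARα being the fatty acid receptor that drives many of these genes in liver. None of the 19 tested in BAT, the 19 in liver or the 17 in sWAT passed (limma), with 1, 1 and 4 at an unadjusted p under 0.05. Of all genes, 23.0% lay lower and 1.25% higher in BAT at that p, 2.54% and 1.67% in liver, and 5.64% and 5.70% in sWAT. In BAT the lowest p belonged to Fgf21, a secreted metabolic hormone, at -0.58 (adjusted p = 0.164), the coactivator Ppargc1b, at -0.51 (adjusted p = 0.207), and Ppara itself, at -0.51 (adjusted p = 0.235). In liver it was the acyl-CoA thioesterases Acot2 (-0.39) and Acot1 (-0.32) and the lipase inhibitor Angptl4 (0.41), each with an adjusted p of 0.984. In sWAT, Vnn1 stood at 1.27 (adjusted p = 0.257) and Acot2 at 0.23 (adjusted p = 0.402). The sWAT library 88 held hepatocyte transcripts, and their part in the sWAT values of these genes was not tested. Between tissues on HFD, 10 of the 20 were higher and 8 lower in BAT than in liver, against 30.2% and 44.4% of all genes. Against sWAT, 10 were higher and 8 lower in BAT (all genes 6.57% and 83.7%). In liver, 11 were higher and 8 lower than in sWAT (all genes 14.9% and 76.1%). These counts were not checked under the other scalings.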

How the data were processed

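Messenger RNA was sequenced in 30 libraries. Total RNA from a FavorPrep kit was selected for poly(A) and made into directional libraries with NEB reagents, per the labels' protocols. STAR, RSEM and the mouse build GRCm39 are named in the submitters' processing notes. Versions are not stated in the labels or headers. In the table the authors deposited, TPM values fill 1 column for each library, each adding up to 1000000 over 55357 genes. As this unit holds no depth, counting intervals could not be computed. The most alike libraries correlated at 0.995, and none were identical.

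Values were analysed as log2(TPM + 1) with limma 3.58.1 in R 4.3.3, with a trended variance, for genes that reached 1 TPM in 5 or more libraries of the fit, two-sided, with Benjamini-Hochberg adjustment over all genes tested and a threshold of 0.05. The scale understates changes of genes with low TPM. Treatments were compared within each tissue (10 libraries), tissues over the 15 HFD libraries, and interactions over all 30. Python 3.11.15 was used for summaries. Mitochondrial transcripts were the 37 genes of that genome and 16 nuclear copies in the table, found with BLAST+ 2.17.0 at 90% identity or more over at least 80% of their length in GENCODE vM21. The alternatives were a pseudocount of 0.1 TPM, no filter, median-ratio scaling, removal of mitochondrial transcripts, other fits and leaving out libraries. The main fit of each comparison was tested on simulated data with known shifts, and the other steps and settings were not. For the tissue comparisons, every simulated library took the levels and spread of BAT. That simulation therefore did not cover the difference in mitochondrial share between tissues.

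The members, the other lists and the tests were chosen with earlier results of these data known. A rule took 16 members for values in every library, together with any past the threshold in a treatment comparison or interaction. Hadhb, Hsd17b4, Crot, Etfb and Abcd3, and the ratios between members, were added after their values were seen. Of the other lists, 1 gene that the rule names is not reported here. Crat, Echs1 and Acaa1a overlap genes on the other strand that average over 10 TPM, and other members overlap genes of lower level. Promoter windows are RefSeq's (GRCm38.p6). Windows were not given for Cpt1b, Crat, Acaa2, Decr1 and Hsd17b4.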

Additional observations from a re-analysis of the deposited data

Results flagged for a closer look

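Within groups of 5, a library was set apart where its gap to the nearest other, divided by the range of the group, exceeded Dixon's critical value of 0.71. This was the case in 14 of 186 sets of a gene and a group, where chance gives about 1 in 20, or 9.3. Of these, 5 were sWAT imeglimin 88, with 420 TPM for Acadl, 136 TPM for Decr1 and 524 TPM for Etfb at the low end, and 239 TPM for Acaa1b and 46.1 TPM for Crot at the high end. That library held 16729 TPM of hepatocyte markers and 1272 TPM of B cell markers, and their part in these values was not tested. In BAT, the libraries set apart were HFD 83 for Acadl (1955 TPM), HFD 75 for Acad10 (16.9 TPM), HFD 80 for Etfa (1177 TPM) and imeglimin 88 for Acad11 (66.0 TPM). In liver they were HFD 75 for Slc25a20 (58.8 TPM) and Decr2 (192 TPM), HFD 80 for Hsd17b4 (382 TPM) and imeglimin 94 for Acox3 (8.65 TPM). In sWAT on HFD it was 83 for Hsd17b4 (450 TPM).

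The response of Acaa2 to imeglimin differed between BAT and sWAT by -0.36 in the interaction test, with lower means in BAT and higher means in sWAT. It was the 1 gene of the pathway that passed this test, and it did so in only some of the settings given above.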

How the results depend on the processing

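Counts of genes past the threshold in either direction together stayed within 1.5 times under every setting for the 3 tissue comparisons, while the split by direction moved with the scaling, and the treatment count in liver and the interaction of liver with sWAT stayed at 0. With all 30 libraries in 1 fit, 2 genes passed in BAT (Hadha and Hsd17b4, adjusted p = 0.00706 and 0.0417) and 2 in sWAT, against 2.64% of all genes lower in BAT and, in sWAT, 2.09% lower and 1.61% higher. Leaving out 1 number at a time gave 0 to 6 genes in BAT, 0 to 1 for the interaction of BAT with liver and 0 to 6 for that of BAT with sWAT, the highest counts all without 88. The BAT with sWAT interaction fell from 1 to 0 genes under median-ratio scaling, without mitochondrial transcripts, without BAT 79 and 94 and in the 20-library fit chosen after seeing the data. Without mitochondrial transcripts the summed levels became 43389 and 43767 TPM in BAT (HFD, imeglimin), 10531 and 10354 in liver and 6783 and 6472 in sWAT.

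Single differences that turned sign in BAT minus liver were, under median-ratio scaling, Mlycd 0.17 and Acad10 0.039, and without mitochondrial transcripts Mlycd 1.06, Acad10 0.90, Acad11 0.37, Eci2 0.16 and Hsd17b4 0.30. In BAT minus sWAT, median-ratio scaling gave Eci2 1.09, Acox3 0.64, Ehhadh 0.65, Hsd17b4 0.44 and Crot 0.37, and removal gave 0.91, 0.48, 0.46, 0.25 and 0.19. In liver minus sWAT, median-ratio scaling gave Cpt2 0.84, Slc25a20 0.98, Acadm 0.28, Acads 0.74, Hadh 0.81, Echs1 0.98, Decr1 0.24, Etfa 0.86, Etfb 0.77 and Hsd17b4 1.02. The cause was not tested.

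Deviations of same-numbered libraries correlated weakly across tissues, from -0.48 to 0.31 with a median of 0.07, and 9 of 30 correlations were over 0.1. In 11 of the 30, a library correlated best with its own number among the 10 libraries of the other tissue. These correlations cannot decide whether a number marks the same animal in each tissue, which the labels do not state. The numbers were not used to pair samples in the main fits. With the replicate block, 30 genes passed in BAT minus liver and 30 in BAT minus sWAT, in either direction. The share of all genes in that fit is not given here. In the main fit, 30.2% of all genes were higher and 44.4% lower in BAT minus liver, and 6.57% and 83.7% in BAT minus sWAT. Acaa2 passed with the block in the interaction of BAT with sWAT (adjusted p = 0.0226). Leaving out sWAT 88 leaves the tissue comparisons as they are, since it is an imeglimin library. Depth is unknown and limits what low values such as Cpt1b in liver can show.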
